A study of Mus musculus with 4 samples.

Results

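The ErbB receptors and the EGF-family ligands that bind them were examined in mouse mammary epithelial cells (MECs) that lacked Deaf-1 or had it restored by a retrovirus. The family was taken as the receptors Egfr, Erbb2, Erbb3 and Erbb4 and the ligands Areg, Ereg, Hbegf, Btc, Tgfa and Nrg1, and its members were the probe sets whose only gene symbol was one of these 10 names. A probe set is the group of short oligonucleotides on the array that together measure 1 transcript region. Of the 10 listed genes, 9 had at least 1 such probe set, which made 20 member probe sets among the 45037 probe sets and 18193 genes analysed. Areg was not analysed here, since no probe set used here had Areg as its single symbol.

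The MECs came from the mammary gland of Deaf-1-/- females aged 8 weeks and were immortalised with the E6/E7 proteins of human papilloma virus. Each of the 2 clones that were picked, C1 and E1, was transduced with an empty retrovirus (control) or with a retrovirus encoding Deaf-1, and RNA was taken after 48 h of selection in puromycin. There were thus 4 samples on 4 Affymetrix mouse expression arrays, 1 for each clone with each retrovirus, and both groups shared the Deaf-1-null genotype, the E6/E7 transduction and the selection. The study asked which genes respond to Deaf-1, and the same arrays also allow clone E1 to be set against clone C1. Each clone is a single cell line, so its 2 arrays describe that line and no wider population. The series description names 1 Deaf-1-null mouse as the source of the cells and the study's methods speak of mice, so C1 and E1 may share an animal.

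ErbB receptors are receptor tyrosine kinases that pair with each other when a ligand binds, and they pass the signal on mainly through the Ras-ERK and PI3-kinase routes. Erbb2 binds no known ligand and acts as a preferred partner, whereas Erbb3 has little kinase activity of its own. The ligands are made as membrane-bound precursors, from which metalloproteases of the Adam family release the soluble factor. In the mammary gland, amphiregulin (Areg) acting on Egfr is known for ductal outgrowth at puberty, and neuregulin (Nrg1) acting on Erbb3 and Erbb4 is known for alveolar development.

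Deaf-1 is a transcription factor known to bind DNA that contains the letters TTCG. The promoters of the 3 members that were above background and are in the promoter table used here are shown for that reason, 5′ to 3′ along the gene, from RefSeq on GRCm38.p6. Each window runs from 250 bases before to 50 bases after the annotated start. TTCG and its reverse complement CGAA, both searched so as to cover both strands, are in capitals. The windows are chr11:16751953-16752252 on the plus strand for Egfr, chr6:86194972-86195271 on the plus strand for Tgfa and chr11:98412234-98412533 on the plus strand for Erbb2.
Egfr: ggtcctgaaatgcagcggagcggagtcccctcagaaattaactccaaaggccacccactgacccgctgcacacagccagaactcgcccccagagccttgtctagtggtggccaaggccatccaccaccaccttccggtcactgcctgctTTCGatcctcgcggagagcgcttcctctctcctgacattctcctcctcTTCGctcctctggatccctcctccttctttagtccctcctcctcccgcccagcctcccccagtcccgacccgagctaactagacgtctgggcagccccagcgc
Tgfa: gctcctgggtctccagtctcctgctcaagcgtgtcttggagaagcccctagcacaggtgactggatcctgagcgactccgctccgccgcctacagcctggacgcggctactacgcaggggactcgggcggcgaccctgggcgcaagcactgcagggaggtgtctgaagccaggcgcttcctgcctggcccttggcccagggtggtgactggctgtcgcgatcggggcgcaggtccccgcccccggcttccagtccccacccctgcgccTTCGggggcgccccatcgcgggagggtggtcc
Erbb2: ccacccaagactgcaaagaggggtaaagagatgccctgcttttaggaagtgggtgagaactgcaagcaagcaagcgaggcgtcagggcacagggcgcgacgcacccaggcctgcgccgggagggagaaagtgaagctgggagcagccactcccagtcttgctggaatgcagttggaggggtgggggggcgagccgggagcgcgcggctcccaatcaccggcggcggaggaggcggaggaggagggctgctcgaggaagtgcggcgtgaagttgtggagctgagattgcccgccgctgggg
The Egfr window held 2 matches, the Tgfa window 1 and the Erbb2 window 0. Of the 10 listed genes, 6 had a window in the table, and 3 of these (Egfr, Tgfa and Areg) held the letters. So short a motif is common, since 44.7% of all 32851 windows of 300 bases held it and 16.7% held it at 2 or more places. A match is a description of the sequence and shows no binding site, and its absence concerns these windows only. Ereg, Erbb3, Nrg1 and Hbegf had no window in the table.

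All values below are log2 expression values after RMA, the deposited normalisation, so a difference of 1 is a doubling. A probe set was called above background when it exceeded 3.77, a level set by the 44 olfactory receptor probe sets, genes not known to be transcribed in such cells, as the 95th percentile of their values. At most 51.8% of the probe sets on an array were above that level, and the array medians lay between 3.77 and 3.87. The Deaf1 probe set 1448446_at, the check of the retrovirus, read 5.01 in C1 control, 6.73 in C1 with Deaf-1, 4.91 in E1 control and 6.25 in E1 with Deaf-1. Both transduced clones were thus above both controls, by 1.53 on average (95% interval 0.96 to 2.10). The controls, though Deaf-1-null, also lay above the background level on this probe set. A value above that level therefore does not by itself show expression of an intact gene, and the reason was not tested. Differences between the retroviruses were tested by limma with the clones as replicates. They were called at an unadjusted p under 0.01. Differences between the clones were tested by limma with the retrovirus held in the fit and called at a Benjamini-Hochberg adjusted p under 0.05.

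Egfr, the receptor for Ereg and Tgfa among others, was well above background in both clones. Its values were higher in E1 than in C1 without passing the test, and it was not called for Deaf-1. Its leading probe set, 1435888_at, read 7.72 in C1 control, 8.04 in C1 with Deaf-1, 8.81 in E1 control and 8.48 in E1 with Deaf-1. Both E1 values lay above both C1 values, and the control and Deaf-1 values overlapped. The change with Deaf-1 was 0.33 in C1 and -0.33 in E1, which left a mean of -0.0040 (SE 0.42, 95% interval -1.10 to 1.09). E1 exceeded C1 by 0.77 (SE 0.21, 95% interval 0.18 to 1.35) and a moderated t of 3.57, with an adjusted p of 0.243 by limma. The clone difference therefore missed the threshold.

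The other Egfr probe sets measure parts of the same transcripts and are not independent of the first. For 1424932_at the values were 7.79, 8.01, 8.26 and 8.18, in the order C1 control, C1 with Deaf-1, E1 control and E1 with Deaf-1. In the same order 1460420_a_at read 7.38, 7.27, 7.59 and 7.89, and 1451530_at read 7.22, 7.19, 7.76 and 7.91. In these 3 probe sets, too, both E1 arrays were above both C1 arrays, by 0.32, 0.42 and 0.63 respectively. The weaker probe set 1432647_at gave 4.10, 4.03, 4.65 and 4.61, again with both E1 arrays higher, by 0.57. In 1454313_at the clones overlapped, at 5.17, 4.91, 5.10 and 5.79, and E1 with Deaf-1 was the single high array. The seventh probe set, 1457563_at, was below background on every array and is given in the plot only.

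Across the 6 Egfr probe sets above background, the difference between E1 and C1 was between 0.32 and 0.77 with a median of 0.49, and their adjusted p-values by limma lay between 0.199 and 0.613. Unadjusted p by limma was under 0.05 for 3 of them, against 14.4% of all probe sets (6502 of 45037), which include those below background. The change with Deaf-1 ranged from -0.26 to 0.33 in C1 and from -0.33 to 0.69 in E1. It had opposite signs in the clones in 5 of the 6, against 62.9% of all probe sets with a mean above background. The direction differed among the probe sets: C1 went up in 2 and E1 went up in 3. The mean change of each of the 6 lay between -0.054 and 0.21.

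**Figure D1:**
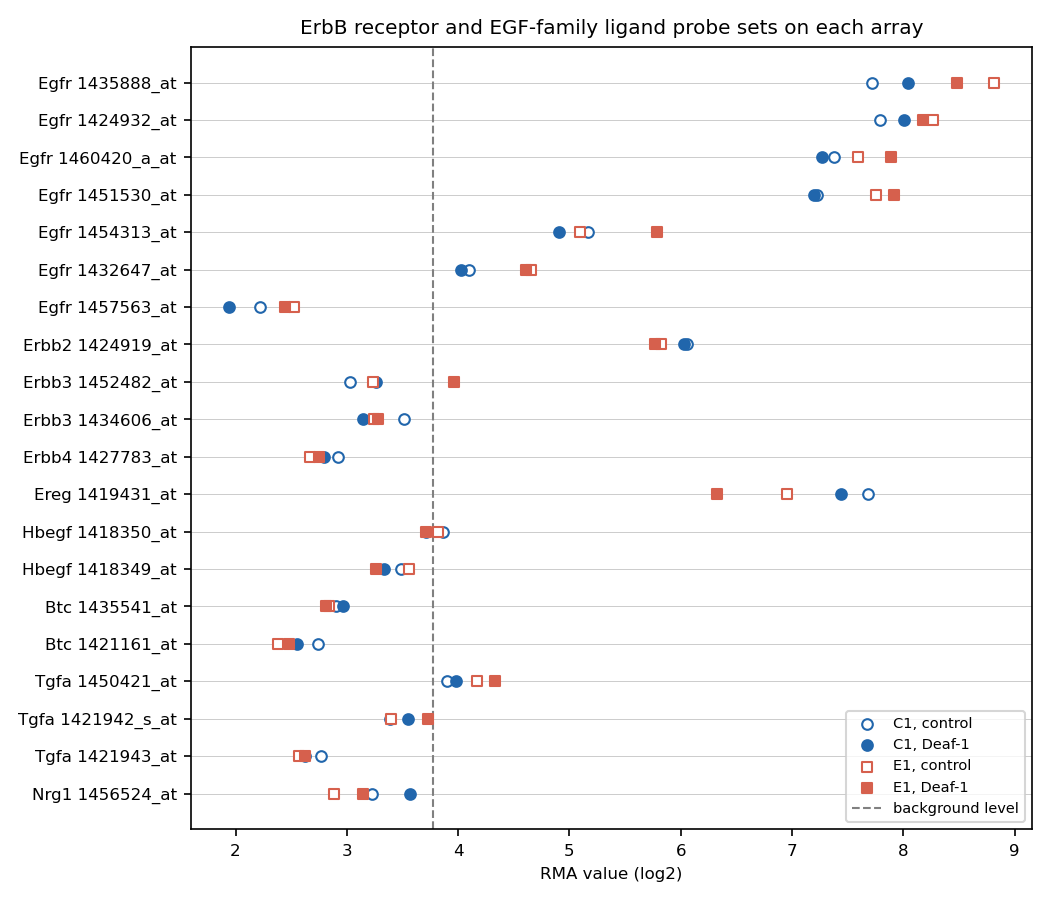
RMA value (log2, horizontal axis) of each of the 20 member probe sets on the 4 arrays, with circles for C1, squares for E1, open symbols for control and filled symbols for Deaf-1; the dashed line is the background level of 3.77. Egfr, Erbb2 and Ereg stand clear of the line, 5 Egfr probe sets above it have both squares to the right of both circles, and Ereg has both squares to the left.

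Erbb2, the partner receptor without a ligand, was also above background and varied little. Its probe set 1424919_at read 6.05 in C1 control, 6.03 in C1 with Deaf-1, 5.83 in E1 control and 5.77 in E1 with Deaf-1. Control and Deaf-1 arrays of a clone were nearly level, and both E1 arrays were below both C1 arrays. The change with Deaf-1 was -0.045 (SE 0.18, 95% interval -0.52 to 0.44). E1 differed from C1 by -0.24 (95% interval -0.63 to 0.14, adjusted p = 0.553 by limma), so the clones were not shown to differ.

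The neuregulin receptors were at or below background. Erbb3, which signals mainly through PI3-kinase, gave 3.03, 3.26, 3.24 and 3.96 on 1452482_at in C1 control, C1 with Deaf-1, E1 control and E1 with Deaf-1. Only E1 with Deaf-1 exceeded background there, and both Deaf-1 arrays were above both controls. The mean change was 0.48 (SE 0.28, 95% interval -0.26 to 1.22) and was not called. It rested on single arrays, at 0.13 without E1 with Deaf-1 and 0.83 without C1 with Deaf-1. The other Erbb3 probe set, 1434606_at, did not follow this order: it read 3.51, 3.15, 3.25 and 3.28, all below background. Erbb4 was below background on every array, with 2.92, 2.80, 2.67 and 2.75 on 1427783_at, so no change in Erbb4 could be measured.

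Among the ligands, Ereg (epiregulin), which activates Egfr and Erbb4, was the one that stood well above background, and it showed the clearest clone difference of the family. Its probe set 1419431_at read 7.68 in C1 control, 7.44 in C1 with Deaf-1, 6.95 in E1 control and 6.33 in E1 with Deaf-1. Both E1 arrays were below both C1 arrays and, within each clone, Deaf-1 was below control. Over the clones together, however, the control and Deaf-1 values overlapped. E1 was 0.92 below C1 on average, written as -0.92 (SE 0.17, 95% interval -1.39 to -0.46), or 1.90-fold higher in C1. The moderated t was -5.41 and the adjusted p 0.146 by limma. Over the alternative settings the adjusted p ran from 0.0429 to 0.431, and it was under 0.05 with the arrays centred on their medians (0.0429) and with a trend in the prior variance (0.0442).

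The change of Ereg with Deaf-1 was -0.24 in C1 and -0.62 in E1, with a mean of -0.43 (SE 0.46, 95% interval -1.66 to 0.79). With the clone as a block the interval narrowed to -0.90 to 0.032 and the moderated t was -2.53. Neither fit called it. Without E1 with Deaf-1, the lowest array, the difference turned to 0.13. That fit had no clone term and set C1 with Deaf-1 against the controls of both clones, so it includes the clone difference. Within C1 the change was still -0.24.

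Tgfa, another Egfr ligand, was just above background on 1450421_at, with 3.90 in C1 control, 3.98 in C1 with Deaf-1, 4.17 in E1 control and 4.33 in E1 with Deaf-1. Both E1 values were the higher ones, by 0.31 (95% interval -0.079 to 0.70, adjusted p = 0.442 by limma). The change with Deaf-1 was 0.12 (95% interval -0.42 to 0.66). On 1421942_s_at the values were 3.39, 3.55, 3.40 and 3.73 in the same order, all below background, and both Deaf-1 arrays were above both controls. The third Tgfa probe set was below background on every array.

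Hbegf, a ligand of Egfr and Erbb4, lay on the background line. Its probe set 1418350_at read 3.86 in C1 control, 3.71 in C1 with Deaf-1, 3.82 in E1 control and 3.71 in E1 with Deaf-1, so that only the controls exceeded background. On 1418349_at the values were 3.49, 3.33, 3.56 and 3.26. In both probe sets both Deaf-1 arrays were below both controls, with mean differences of -0.13 (95% interval -0.50 to 0.24) and -0.23 (95% interval -0.61 to 0.16), and neither was called. Btc (betacellulin) was below background on all arrays, between 2.38 and 2.96 over its 2 probe sets. Nrg1 was also below background throughout, at 3.22, 3.57, 2.88 and 3.14 on 1456524_at, with a difference of 0.30 between Deaf-1 and control (95% interval -0.30 to 0.90).

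Taking the 20 probe sets as a whole, 9 were above background on every array: 6 of Egfr and 1 each of Erbb2, Ereg and Tgfa. A further 9 were below background on every array. For Deaf-1 against control, limma called 0 of the 20 at an unadjusted p under 0.01, and 0 also reached an unadjusted p under 0.05. Over all probe sets 0.0111% were called (5 of 45037), a share far smaller than the p threshold of 0.01. This fit counts the difference between the clones as spread within a group, so 0 of the 20 carries little information. With the clone as a block 0 of the 20 were called, against 0.0244% of all probe sets, and again 0 had p under 0.05. Over all probe sets, 0 passed an adjusted p under 0.05 in either fit, while an unadjusted p under 0.05 was found for 195 in the unblocked fit and for 394 in the blocked one. A call that is missed does not show that Deaf-1 left a gene as it was. For the leading probe set of Egfr, the interval without a block still includes a difference of -1.10 or 1.09. With the clone as a block, that interval ran from -0.59 to 0.58.

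Both Deaf-1 arrays were above both controls in 2 of the 20 probe sets (1 of Erbb3 and 1 of Tgfa), against 9.53% of all probe sets. They were below both controls in the 2 Hbegf probe sets, against 9.41% of all. These shares are close to the background of the array, and all 4 of these probe sets were below background on at least 1 array. Of the 9 probe sets above background, 5 changed in opposite directions in the clones, all of them Egfr, which is near the share of 62.9% over all probe sets above background. The median size of the change with Deaf-1 over the 9 was 0.066, and it was 0.092 over all 22776 probe sets with a mean above background.

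**Figure D2:**
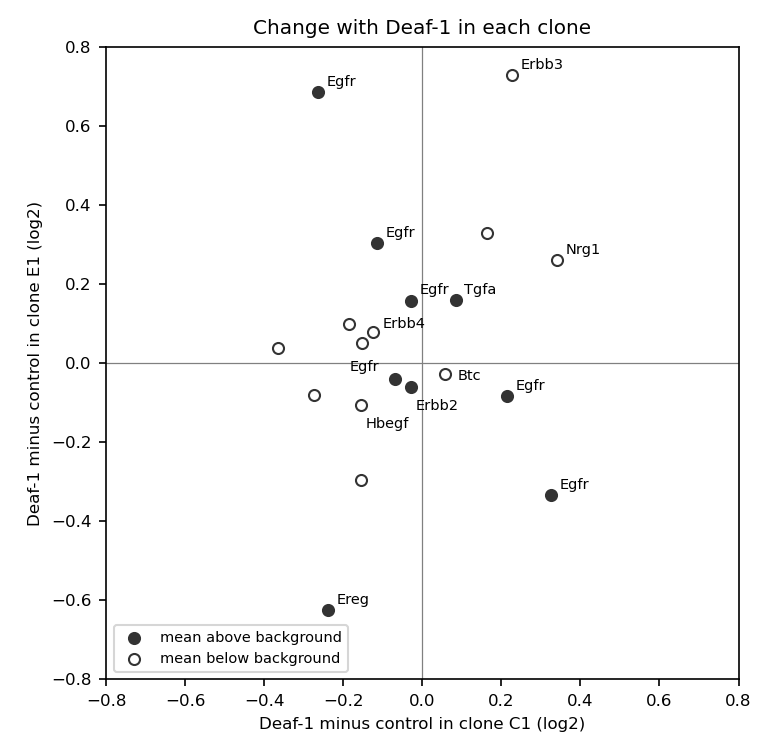
Change with Deaf-1 (log2, Deaf-1 minus control), with C1 plotted across and E1 plotted upwards, 1 point for each of the 20 member probe sets; filled points have a mean above background, and names are given for these and for the leading probe set of the other genes. Ereg lies in the lower left at -0.24 and -0.62, and 5 of the 6 filled Egfr points lie in the quadrants where the clones moved in opposite directions.

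Between the clones, 0 of the 20 probe sets passed an adjusted p under 0.05 by limma, against 0.109% of all probe sets (49 of 45037). At an unadjusted p under 0.01 limma picked 1 of the 20, Ereg, against 5.38% of all probe sets, and at p under 0.05 it picked 4, namely Ereg and 3 of Egfr, against 14.4% of all. Of the 9 above background, both E1 arrays were above both C1 arrays in 6 (5 of Egfr and 1 of Tgfa), against 27.3% of all probe sets with a mean above background. They were below both C1 arrays in 2 (Erbb2 and Ereg), against 32.6%. Since 5 of the 6 higher probe sets measure the same gene, the count stands for 2 genes. The median size of the clone difference was 0.42 over the 9 and 0.25 over all probe sets with a mean above background. The RNA is from whole cultures, so fewer cells with a transcript and less of it in each cell cannot be told apart.

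**Figure D3:**
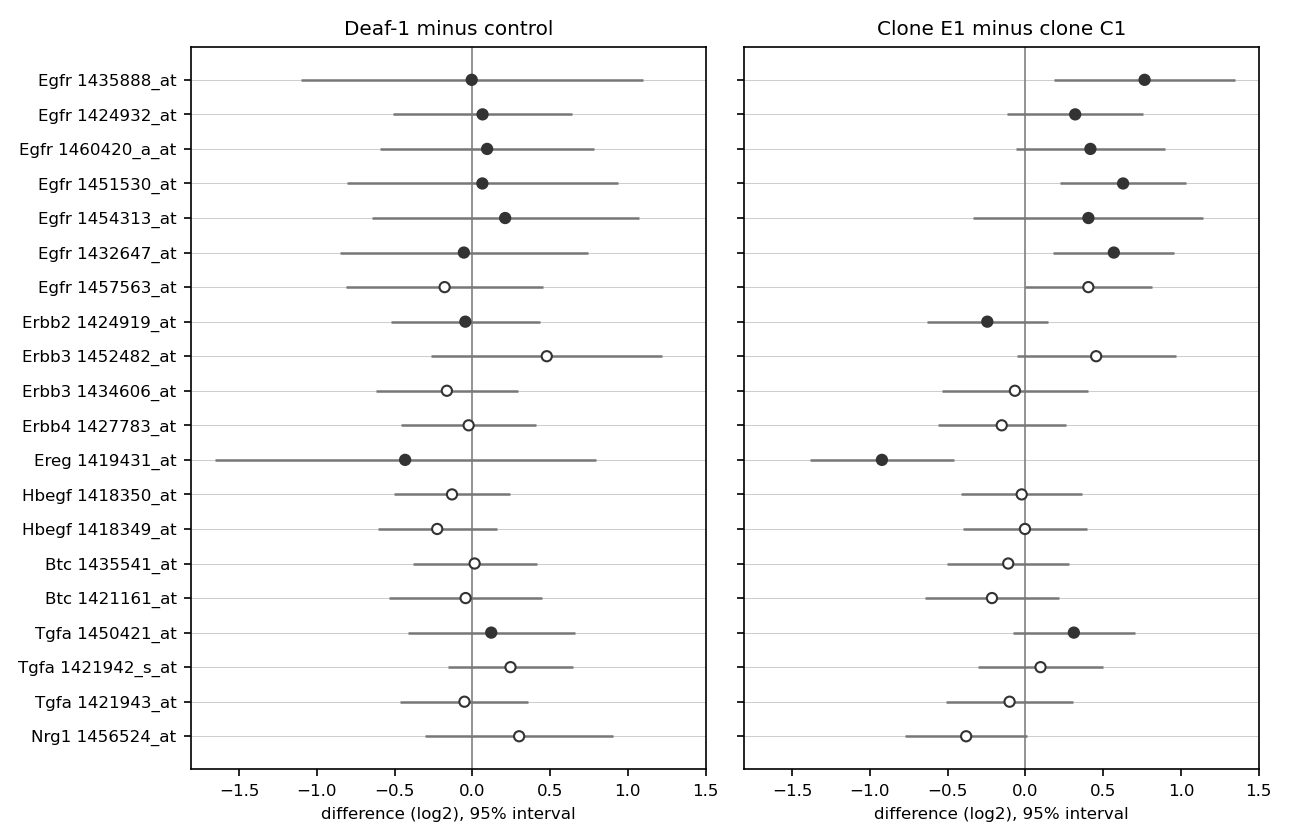
Differences (log2) with 95% intervals for the 20 member probe sets, Deaf-1 minus control on the left and clone E1 minus clone C1 on the right; filled points have a mean above background. All intervals on the left include 0, and on the right those of Ereg and of 3 Egfr probe sets above background do not.

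The rest of the pathway was followed with 6 lists of 96 genes, of which 88 were measured, each by its probe set with the highest mean, and 81 had a mean above background. For Deaf-1, 0 of the 88 were called in either fit by limma, and 1 had an unadjusted p under 0.05 (2 with the clone as a block). Over all 45037 probe sets, which include those below background, 195 had an unadjusted p under 0.05 by limma (394 with the block). For the clones, 0 passed an adjusted p under 0.05 and 11 had an unadjusted p under 0.01, all with a mean above background. Over all genes with a mean above background 10.2% had an unadjusted p under 0.01 (1213 of 11873).

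Of the 5 other EGF-family ligands, only Nrg2, a neuregulin, had a mean above background. It read 4.46 in C1 control, 4.56 in C1 with Deaf-1, 4.56 in E1 control and 5.12 in E1 with Deaf-1, with E1 with Deaf-1 as the high array. Egf itself was below background on every array.

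All 10 genes of ligand shedding had a mean above background. Adam10, the protease that releases betacellulin and EGF, read 9.23, 9.24, 8.74 and 8.33 in C1 control, C1 with Deaf-1, E1 control and E1 with Deaf-1. E1 was lower on both arrays, by -0.70 (95% interval -1.18 to -0.22, adjusted p = 0.213 by limma). Adam12 was higher on both E1 arrays, at 8.37, 8.70, 9.31 and 9.14, with a difference of 0.69 (adjusted p = 0.233 by limma). With Deaf-1 the highest moderated t was that of Adam15, at a log2 change of 0.20 (95% interval -0.20 to 0.60), and the lowest that of Adam10, at -0.20 (95% interval -1.18 to 0.78). Adam17, the main protease for Areg, Tgfa and Hbegf, was nearly level at 8.16, 8.25, 8.28 and 8.20. Adam17 lies outside the rule for named genes and was chosen after its values were seen.

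Of the 20 genes that restrain ErbB receptors or carry them to degradation, all had a mean above background. Ptprk, a receptor phosphatase that acts on Egfr, showed the largest t between the clones, with 7.22 in C1 control, 7.38 in C1 with Deaf-1, 6.10 in E1 control and 6.01 in E1 with Deaf-1. The E1 values lay well below the C1 values, by -1.25 (SE 0.16, adjusted p = 0.101 by limma), and the retrovirus made little difference. Sh3kbp1, an adaptor of receptor uptake, had the highest t in the other direction, with 0.28 (95% interval -0.14 to 0.71). For Deaf-1 the extremes by moderated t were Lrig3, with a log2 change of 0.19, and the phosphatase Ptprj, with -0.44, both with intervals that include 0.

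Among 24 proximal adaptors and effectors, 22 had a mean above background. Nck2, an adaptor that binds phosphorylated receptors, was higher in E1, at 6.30, 6.50, 7.41 and 7.15, by 0.88 (adjusted p = 0.166 by limma). The adaptor Crkl was lower in E1, at 7.91, 8.01, 7.20 and 7.18, by -0.77 (adjusted p = 0.149 by limma). For Deaf-1 the highest and lowest moderated t were those of Muc1, at a log2 change of 0.25, and of the kinase Src, at -0.24. In the Ras-ERK cascade, 9 of the 15 listed genes were measured. Rasa1, a GTPase-activating protein that turns Ras off, read 7.23, 7.18, 8.11 and 7.99 and was higher in E1 by 0.85 (adjusted p = 0.137 by limma). The scaffold Ksr1 was lower in E1, at 8.46, 8.49, 7.78 and 7.93, by -0.62 (adjusted p = 0.195 by limma). With Deaf-1, Ksr1 had the highest moderated t of this list, at a log2 change of 0.089, and the kinase Braf the lowest, at -0.17 (95% interval -0.58 to 0.23).

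Genes that ERK signalling induces, many of which feed back on it, held 7 of the 11 pathway genes with an unadjusted p under 0.01 between the clones. They were 7 of the 20 measured, against 10.2% of all genes with a mean above background, and nothing particular to the list was tested. Ccnd1 (cyclin D1), which drives entry into the cell cycle, read 4.53 in C1 control, 4.54 in C1 with Deaf-1, 7.04 in E1 control and 6.86 in E1 with Deaf-1. Both E1 arrays were far above both C1 arrays, by 2.42 (SE 0.15, 5.35-fold, adjusted p = 0.0529 by limma). Dusp4, a phosphatase that switches ERK off, went the other way, with 8.71, 8.62, 6.87 and 6.48 in the same order. It differed by -1.99 (SE 0.16, adjusted p = 0.0610 by limma), or 3.98-fold higher in C1. The other 5 were chosen after their values were seen. Of these, Spry2 (-1.50), Etv5 (-1.57), Ier3 (-1.31) and Dusp6 (-0.85) were lower in E1, and Spry4 (0.68) was higher. Spry2 and Spry4 are inhibitors of receptor signalling of the same family, so the feedback genes did not all differ in 1 direction. None of the 7 reached an adjusted p under 0.05, and the median difference over the 20 genes was -0.17.

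Egr1, an immediate-early transcription factor, had the highest t of the ERK-induced genes for Deaf-1 and was the 1 pathway gene with an unadjusted p under 0.05 there. It read 9.80 in C1 control, 10.20 in C1 with Deaf-1, 9.53 in E1 control and 10.29 in E1 with Deaf-1. Both Deaf-1 arrays were above both controls, by 0.40 in C1 and 0.76 in E1, with a mean of 0.58 (SE 0.17, moderated t 3.43). This did not reach the threshold of the comparison. Fos, another immediate-early gene chosen after its values were seen, gave 8.01, 8.50, 7.41 and 8.23 in the same order, with a mean change of 0.65 (95% interval -0.037 to 1.34). With the clone as a block the lower bound for Fos was 0.20 and its moderated t 3.96, which was not called either. Both Deaf-1 arrays were above both controls. Etv4 had the lowest t, with a change of -0.23 (95% interval -0.84 to 0.38).

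**Figure D4:**
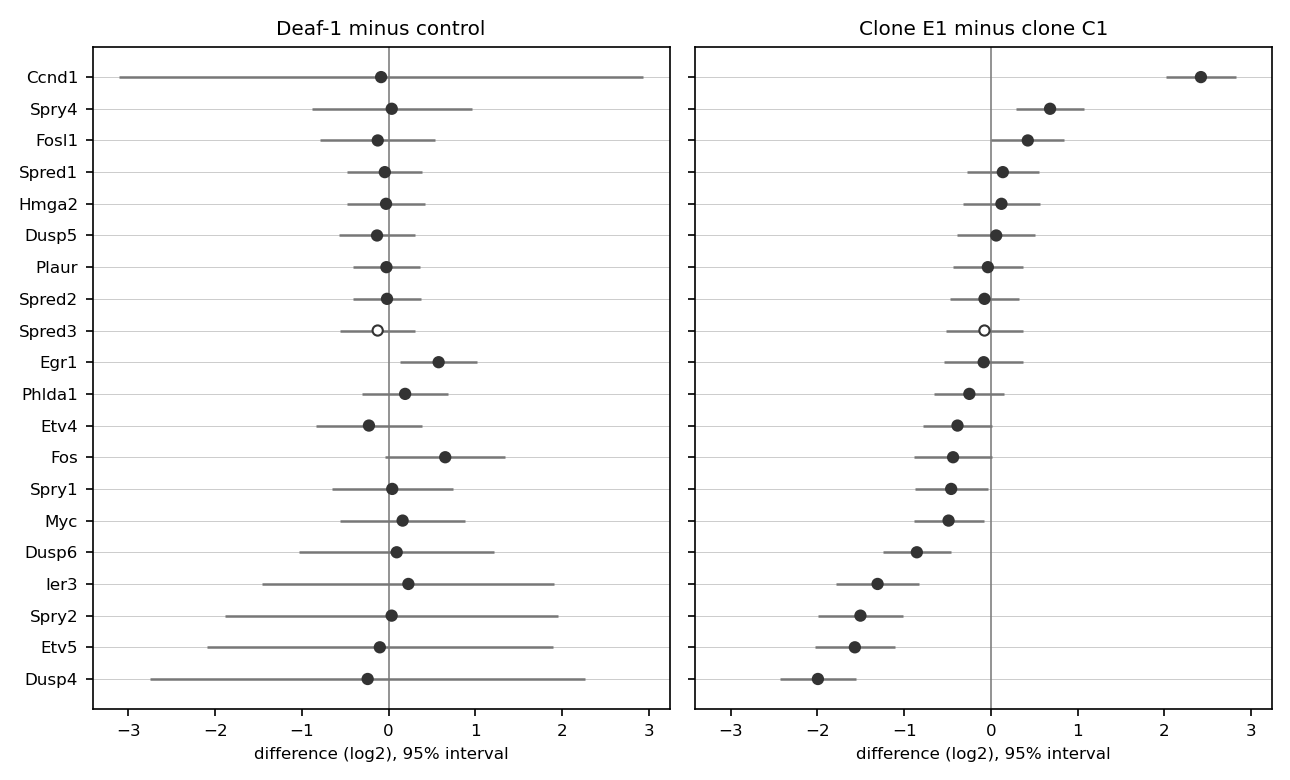
Differences (log2) with 95% intervals for the 20 measured genes that ERK signalling induces, Deaf-1 minus control on the left and clone E1 minus clone C1 on the right; the open point is a gene with a mean below background. On the right the points run from -1.99 for Dusp4 to 2.42 for Ccnd1, and on the left, in the fit without a clone block, Egr1 is the only gene whose interval excludes 0.

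The labelled cell type was set against marker genes. Of 14 measured luminal epithelial markers, 4 had a mean above background (Krt19, Epcam, Elf3 and Cldn3) and 7 were below it on every array. The defining genes Cdh1 (E-cadherin, 2.22 to 2.42) and Krt18 (2.75 to 3.51) were among the latter. Of 11 basal and myoepithelial markers 7 had a mean above background, among them Cdh3 (6.70 to 7.85), Cnn1 (6.14 to 7.81) and Krt5 (4.45 to 4.74). Acta2, also a gene of activated fibroblasts, was at 11.46 to 11.84. Krt14, Krt17 and Myh11 were below background on every array. All 13 fibroblast and mesenchymal markers had a mean above background, among them Vim (12.13 to 12.82), Col1a1 (12.50 to 12.83) and Pdgfra (10.88 to 11.25). Most luminal markers were thus at background in these MECs, whereas most basal and all fibroblast markers had a mean above it. Of the basal keratins listed, however, only Krt5 was above background.

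Between the clones the median of the luminal list was 2.98 on both C1 arrays and 3.60 and 3.51 on the E1 arrays, all below the background level of 3.77. The median over its genes of the difference E1 minus C1 was 0.18. For the fibroblast list the median was 10.90 and 11.23 in C1 and 10.91 and 10.90 in E1. At an unadjusted p under 0.01 by limma, 1 of the 14 luminal markers was higher in E1 (Krt7, 1.36). Of the 11 basal markers 3 were lower (Cnn1, -1.51, Mylk, -1.15, and Cdh3, -0.97). Of the 13 fibroblast markers 2 were higher (Pdgfrb, 0.83, and Zeb1, 0.77) and 1 lower (Lum, -2.82). Over all genes 1265 of 18193 passed, and 1213 of the 11873 with a mean above background (10.2%). Krt7 in C1 (2.86 and 2.92) and Mylk in E1 (3.42 and 3.58) were below background. None of these 7 had an adjusted p under 0.05. Fabp4, a fatty acid-binding protein of adipocytes, was at 2.57 and 3.77 in C1 against 10.59 and 10.56 in E1 (adjusted p = 0.0322 by limma), whereas Adipoq, which defines adipocytes, was below background on every array. The part of these markers in the values of Egfr and Ereg in the clones was not tested.

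**Figure D5:**
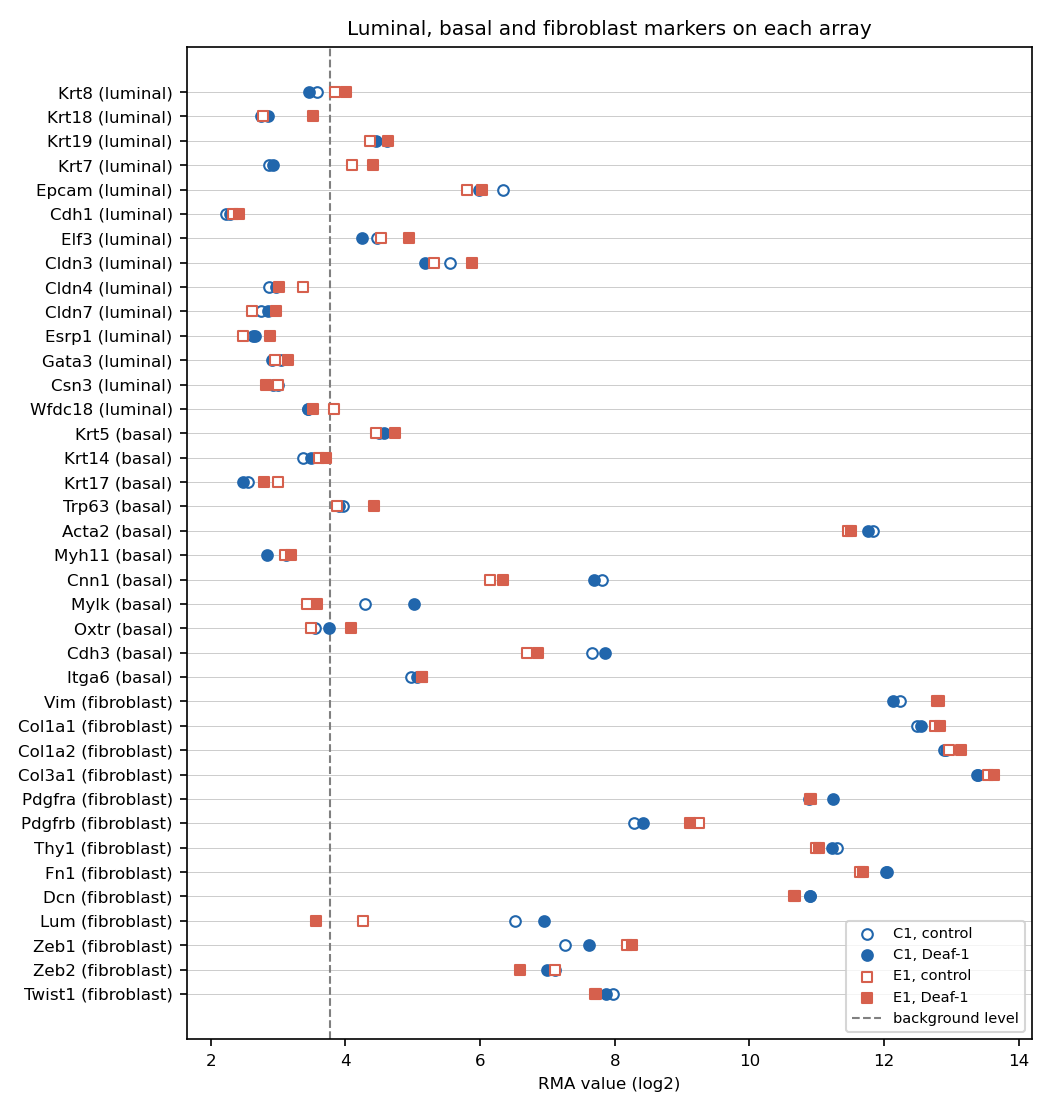
RMA value (log2) of the measured luminal, basal and fibroblast markers on the 4 arrays, with circles for C1, squares for E1, open symbols for control, filled symbols for Deaf-1 and the background level of 3.77 dashed. Most luminal markers lie left of the line, Cdh1 at 2.22 to 2.42, and the collagens and Vim lie above 12 on every array.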

How the data were processed

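RNA of 4 cultures was hybridised to Affymetrix mouse arrays. The deposited values are log2 expression values that the authors made with RMA (named with limma in the submitters' processing notes, with no version given in the sources used here). There were 45101 probe sets, of which 64 array controls were left out, and 0 further sample columns. Probe sets were named from the platform annotation: 34945 carried 1 gene symbol, 932 several and 9160 none, and only the first were named. The number of arrays limits the precision.

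Groups followed the sample titles. Tests were two-sided, in limma 3.58.1 under R 4.3.3 (lmFit and eBayes, no trend), over all 45037 probe sets with Benjamini-Hochberg adjustment. They were checked on simulated data. In those made for Deaf-1 against control the clones did not differ, so the check did not cover the pairing of these arrays. Deaf-1 was compared with control without a block (2 residual and 2.56 prior degrees of freedom) and, as an alternative, with clone as a replicate block (1 and 3.21). Both retroviruses were used in the same clone, which pairs the arrays, and arrays of 1 clone deviated together (r = 0.54). The clones were compared with the retrovirus in the fit. In the fit without a block, p-values set the difference against a spread within groups that includes the difference between the clones. In the fits with both clone and retrovirus, the residual spread is the disagreement between the clones in the retrovirus change, which may be technical.

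All member probe sets were reported. In each pathway list the genes with the highest and the lowest moderated t among those above background, in either comparison, were named. Alternatives were quantile normalisation, median centring, a filter at background, a trend or a robust prior, removal of probe sets marked as cross-hybridising, another leading probe set and leaving out each array. The members and lists were chosen with earlier results of these data known.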

Additional observations from a re-analysis of the deposited data

Results flagged for a closer look

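In 5 Egfr probe sets above background the change with Deaf-1 had opposite signs in the 2 clones, and the change in E1 minus that in C1 was -0.66 for 1435888_at, -0.30 for 1424932_at, 0.42 for 1460420_a_at, 0.19 for 1451530_at and 0.95 for 1454313_at (log2). The sign of this difference was itself not shared among the probe sets. With 1 array for each clone and retrovirus the difference could not be tested, and 62.9% of all probe sets with a mean above background also changed in opposite directions.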

How the results depend on the processing

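For Deaf-1 against control, 0 member probe sets and 0 pathway genes were called under every setting run, the replicate block included (0 and 0, with 11 calls over all probe sets against 5 without it). The block changed no call of a member. Calls over all probe sets were 2 with the filter at background and 25 with a trend in the prior variance, and that count also moved with 1 array left out. The sign of several small changes turned. The fits with 1 array left out had no clone term and set unequal mixes of the clones against each other. Their values therefore include the clone difference. Within the clones, Erbb2 (-0.029 in C1 and -0.061 in E1), Ereg (-0.24 and -0.62) and Tgfa (0.084 and 0.16) each kept the same sign. The leading probe sets of Egfr, Erbb4 and Btc did not. With 1 array left out, the change of Egfr ran from -0.55 to 0.54 (turned at 0.21 and 0.54), Erbb2 from -0.18 to 0.085 (0.070, 0.085), Erbb4 from -0.15 to 0.10 (0.10, 0.0011), Ereg from -0.99 to 0.13 (0.13), Tgfa from -0.053 to 0.30 (-0.016, -0.053) and Btc from -0.062 to 0.091 (-0.062, -0.020). With quantile normalisation Egfr was 0.027, and with median centring Btc was -0.0066. Between the clones, 1 member (Ereg) was called with median centring and with a trend in the prior variance, where its difference was -0.94 and -0.92, and 0 otherwise. With 1 array left out the Ereg difference was -1.23 to -0.61, that of Egfr was 0.60 to 0.93, and Hbegf turned to 0.054 and 0.030. Those fits, without a retrovirus term because 3 arrays leave no residual degree of freedom beside it, were chosen after seeing the data. Pathway genes called between the clones were 11 with no replicate block (no retrovirus term), 4 with the filter, 9 with quantile normalisation, 8 with median centring, 10 with the trend and 1 when the probe set with the largest spread led, against 0 in the fit reported. Calls over all probe sets were then 2306, 412, 1286, 1591 and 1696 for the first 5 of these, against 49, and 0 with any array left out. The causes were not tested.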
